A study of Mus musculus with 30 samples.

Results

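SR proteins and heterogeneous nuclear ribonucleoproteins (hnRNPs) are the classical families of RNA-binding proteins that set the choice of splice sites. The genes described here are the protein-coding genes of the RefSeq annotation of GRCm38.p6 (mm10) named Srsf followed by a number or starting with Hnrnp, which are 32 of 21887 protein-coding genes, with 11 SR and 21 hnRNP genes. One of them, Hnrnpa1l2-ps2, is annotated as protein-coding although its name is that of a pseudogene. The study sequenced DNA from chromatin immunoprecipitation in N1E115, a neuroblastoma cell line from the mouse that is labelled NOS1+, after 3 days in 4% O2 or 20% O2. All groups share that line, and no other agent or allele is given in the labels. There were 6 antibodies, with a pair of libraries per antibody and oxygen level. Replicate 1 and replicate 2 of a group were sequenced on different flow cells, per the file headers, and are called round 1 and round 2. The labels do not say whether both libraries of a pair stem from independent cultures, so each p-value reflects the spread of these libraries alone, and that spread may be technical.

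SR proteins carry arginine-serine repeats, bind exons and recruit the machinery that recognises splice sites, whereas many hnRNPs coat nascent transcripts and oppose the use of nearby splice sites. Several genes of both families limit their own output through exons or introns whose inclusion leads to decay of the transcript. RNA polymerase II is phosphorylated at serine 5 of its carboxy-terminal repeats near gene starts (POLR2S5 antibody) and at serine 2 during elongation (POLR2S2 antibody), and the POLR2 antibody is labelled with no modification. Acetylation of histone H3 at lysine 9 (H3K9ac) marks active promoters, and CTCF and the cohesin subunit RAD21 together hold the anchors of chromatin loops.

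The labelled identity and oxygen levels were set beside lists of known marker genes. In the POLR2S5 libraries, 8 of 11 neuroblast and sympathetic genes had an enriched interval in all 4 libraries and none of the 11 lacked one throughout, against 1 of 6 macrophage, 1 of 4 endothelial, 0 of 4 fibroblast and 0 of 3 astrocyte genes. No POLR2S5 island in any library was found for 3 of 6 macrophage, 2 of 4 endothelial, 2 of 4 fibroblast and 2 of 3 astrocyte genes. Of 5 Schwann cell and oligodendrocyte genes, 3 had an island in all 4 libraries and 1 had none. Of 9 tested targets of the hypoxia-inducible factor HIF, 7 were higher and 1 was lower at 4% O2 in both rounds for POLR2S5. The median log2 ratio was 1.33, and 28.1% of all genes were higher in both rounds. For POLR2, 3 of 5 tested targets were higher and 2 lower (median 0.38), and for POLR2S2 4 of 6 were higher and 1 lower (median 1.1). The 20% O2 library of round 1 held the fewest reads in enriched intervals for every polymerase antibody, with 2.06 M reads for POLR2, 5.93 M for POLR2S5 and 4.87 M for POLR2S2, against 5.93 to 10.17 M, 10.98 to 12.37 M and 9.7 to 16.6 M in the other libraries. The sources used here give no total depth.

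Promoter sequences of 30 of the 32 genes, in 42 windows of 250 bases before to 50 bases after an annotated start, came from RefSeq (GRCm38.p6). Their median GC content was 67.8%, against 56.3% over all 21263 protein-coding windows. Peaks were merged over libraries into sites. An H3K9ac site called in all 4 libraries overlapped 39 of the 42 windows, and such a CTCF site overlapped a window of 7 genes. The shares over all protein-coding windows were not computed. Of those 7, 2 genes, Srsf12 and Hnrnpl, held the letters of a CTCF core motif, and their promoters are printed with the motif in capitals. The core searched was CC, any 3 bases, AG, any 2 bases and GGC, which was found in Srsf12 as CCGGGAGGGGGC. The shorter core, contained in the former, lacks the final C and was found in Hnrnpl on the reverse strand, where the printed letters are CCCCCTATCGG. Hnrnpa1 and Srsf4 are printed because theirs were the only unadjusted p under 0.05 among these genes, for POLR2S2 and for POLR2. Their capitals mark ACGTG, the core of the response element bound by HIF. Each line gives the 250 bases before the start, 5′ to 3′ on the strand of the gene, all on the plus strand, at chr4:33209022-33209271 for Srsf12, chr7:28810640-28810889 for Hnrnpl, chr15:103240147-103240396 for Hnrnpa1 and chr4:131873387-131873636 for Srsf4.
Srsf12: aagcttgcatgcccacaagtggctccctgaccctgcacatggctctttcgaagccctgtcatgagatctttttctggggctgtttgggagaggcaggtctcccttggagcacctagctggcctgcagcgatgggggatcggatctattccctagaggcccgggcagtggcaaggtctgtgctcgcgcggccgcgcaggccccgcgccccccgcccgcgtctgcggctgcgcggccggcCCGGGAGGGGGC
Hnrnpl: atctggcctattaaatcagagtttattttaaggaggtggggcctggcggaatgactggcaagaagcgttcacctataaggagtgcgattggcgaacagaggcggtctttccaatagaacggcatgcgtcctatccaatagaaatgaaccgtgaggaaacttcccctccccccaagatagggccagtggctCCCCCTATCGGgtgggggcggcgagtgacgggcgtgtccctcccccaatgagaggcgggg
Hnrnpa1: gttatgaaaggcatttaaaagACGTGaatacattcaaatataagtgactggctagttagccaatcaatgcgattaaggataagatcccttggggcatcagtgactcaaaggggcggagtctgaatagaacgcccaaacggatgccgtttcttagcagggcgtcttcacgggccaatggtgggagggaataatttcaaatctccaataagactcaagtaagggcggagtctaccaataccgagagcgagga
Srsf4: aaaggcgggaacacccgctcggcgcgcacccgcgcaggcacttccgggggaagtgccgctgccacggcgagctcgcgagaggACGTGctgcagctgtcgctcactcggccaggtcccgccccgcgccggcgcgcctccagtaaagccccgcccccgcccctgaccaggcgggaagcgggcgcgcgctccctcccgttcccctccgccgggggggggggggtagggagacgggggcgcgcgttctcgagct

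Searched on both strands, the CTCF core was present in 11.9% of the 42 windows and in 9.88% of all protein-coding windows, and the shorter form in 35.7% and 26.8%. ACGTG was present in 33.3% of the windows, in 12 of the 30 genes, against 20.9% of all windows. The box GGGCGG, bound by SP1, was present in 81.0% against 46.2%, CCAAT in 52.4% against 38.2%, the ETS motif CCGGAAG in 23.8% against 11.6% and TATAAA in 11.9% against 12.6%. These matches are descriptions of letters in the windows, and windows of 1 gene can overlap.

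RNA polymerase II covered nearly all of these genes and at high levels. Reads of SICER islands, the enriched intervals called for the polymerase antibodies, were apportioned to each gene with 1 kb to each side, and genes with an island in all 4 libraries were tested. POLR2 islands were found in all 4 libraries over 29 of the 32 genes, against 42.2% of all protein-coding genes, and POLR2S5 and POLR2S2 islands over 30 each, against 52.7% and 42.8%. The gene and flanks were covered by islands over at least 90% of their length in 17 to 26 of the 32 genes for POLR2, depending on the library. Hnrnpa1l2-ps2 had no island in any library. Srsf12, an SR gene of restricted expression, had 51 (round 1) and 137 (round 2) POLR2 reads at 4% O2 against 0 and 136 at 20% O2, and a POLR2S2 island in 1 library alone, with 57 reads. Hnrnpd, encoding the AU-rich element binding protein AUF1, lacked a POLR2 island in the 20% O2 library of round 1 and had 792, 1020 and 1036 reads in the others, while POLR2S5 gave 1258 and 1241 reads at 4% O2 against 1061 and 1241. Of the 32 windows, 20 also hold part of another protein-coding gene, such as Cbx5 beside Hnrnpa1 and Cbx3 beside Hnrnpa2b1, and reads of overlapping or divergent genes cannot be told apart.

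Scaled reads are island reads in tested gene windows as RPM, with TMM-adjusted totals. Levels are given as scaled reads per kb of window and as the percentile among all genes tested. The median percentile of the tested SR and hnRNP genes was 91.06 for POLR2, 93.63 for POLR2S5 and 91.59 for POLR2S2. Hnrnpu, a nuclear matrix-associated hnRNP, was among the highest for each antibody, with mean levels of 25.6, 17.3 and 19.6 per kb. For POLR2 the next were Hnrnpa0 with 25.6 and Hnrnpab with 23.6 per kb. For POLR2S5 they were Hnrnpab with 15.8 and Hnrnpa2b1 with 15.7 per kb, and for POLR2S2 the same 2 genes with 19.3 and 18.3 per kb. The lowest tested were Srsf4, Hnrnpll and Hnrnph2 for all 3 antibodies, at 2.91, 4.68 and 4.87 per kb for POLR2, 3.28, 4.72 and 2.96 for POLR2S5 and 3.64, 4.88 and 2.55 for POLR2S2. The SR genes had median percentiles of 93.42, 94.61 and 94.03 and the hnRNP genes 88.4, 90.13 and 90.9, a difference that was not tested.

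**Figure D1:**
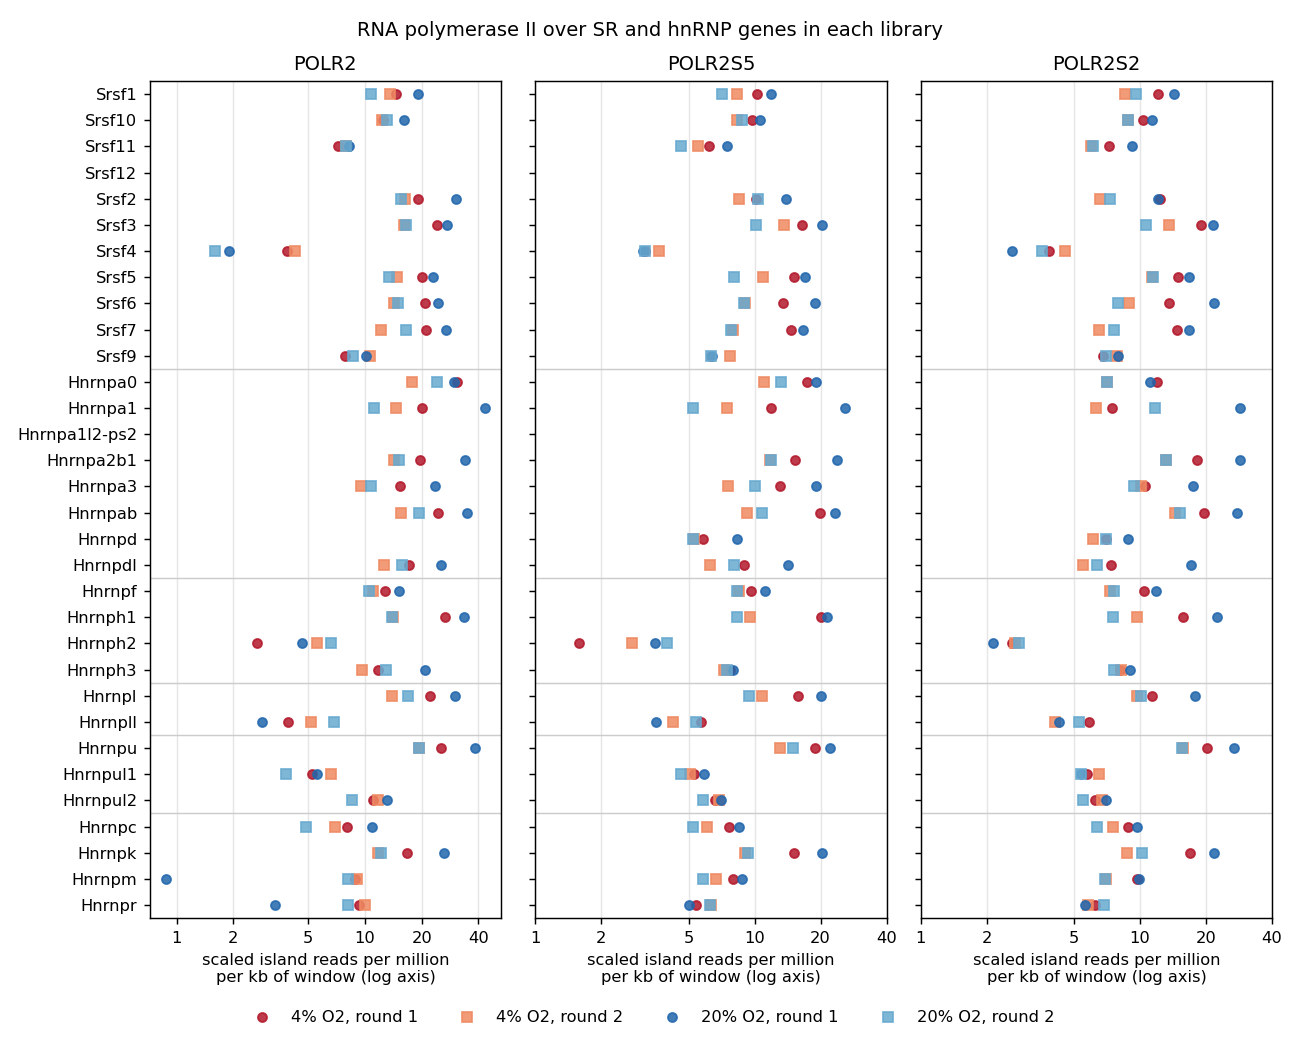
Scaled island reads (RPM) per kb of window (log axis) of each SR and hnRNP gene (rows, families separated by lines) for the POLR2, POLR2S5 and POLR2S2 antibodies, with 1 point per library and no points for genes without an island in all 4 libraries. The 20% O2 library of round 1 lies lowest for Hnrnpm and Hnrnpr in POLR2 and highest for Hnrnpa1 in all 3 panels.

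The comparison of 4% with 20% O2 within rounds called none of the SR or hnRNP genes. Of 29, 30 and 30 genes tested for POLR2, POLR2S5 and POLR2S2, edgeR's quasi-likelihood test with the round as a block called 0, 0 and 0 at an adjusted p of 0.05, where the background over all genes was 0.0% for each antibody and direction, that is 0 of 9245, 11534 and 9364 genes. At an unadjusted p under 0.05 the counts were 1, 0 and 1 of the SR and hnRNP genes, against 5.84%, 7.14% and 8.96% of all genes. DESeq2 with the round as a term called none of them either, with 28, 29 and 30 of them given an adjusted p. Over all genes DESeq2 called 0.177% higher and 0.0177% lower for POLR2, 0.54% and 0.463% for POLR2S5 and 2.04% and 1.02% for POLR2S2. Counts were also simulated with the spread fitted to each level of reads, without further variation between genes. Changes were planted in genes drawn at random over all levels. The edgeR test recovered 0%, 4% and 5% of genes changed by a log2 ratio of 1 and 35%, 74% and 49% at a log2 ratio of 2. A log2 ratio of 1 was thus mostly not detected there. Recovery at genes of levels as high as those of the SR and hnRNP genes was not computed.

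Ratios of the family lay near those of all genes. The median log2 ratio of 4% over 20% O2 was -0.16 for POLR2, -0.07 for POLR2S5 and -0.08 for POLR2S2, beside -0.01, 0.0 and 0.0 over all genes. A ratio within 1.5-fold was found for 86.2%, 96.7% and 93.3% of the tested SR and hnRNP genes, against 76.2%, 75.3% and 66.6% of all genes tested. The latter include many genes of lower level, and the share among genes of similar level was not computed. In POLR2, 13 of 29 were lower at 4% O2 in both rounds and 3 were higher in both, against backgrounds of 29.0% and 27.2%. For POLR2S5, 11 of 30 were lower and 2 higher (28.5% and 28.1% of all genes), and for POLR2S2 11 of 30 and 2 (31.0% and 30.6%). Both 4% O2 libraries lay above both 20% O2 libraries for 3, 0 and 2 of them (background 16.1%, 15.4% and 18.7%) and below for 3, 2 and 2 (15.1%, 14.3% and 17.4%). The medians of round 1 were -0.37, -0.21 and -0.19, and those of round 2 were -0.0, 0.03 and -0.01.

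The medians over both rounds moved when single libraries were left out, with ranges given in the last section. For each antibody the lowest, further below 0, came without another library, and the highest without the 20% O2 library of round 1. Without it, the median ratios of the SR and hnRNP genes were 0.19, 0.18 and 0.19, on the other side of 0 from the values with it. That fit had no term for the round and set both 4% O2 libraries against the 20% O2 library of round 2. Oxygen and round are therefore partly mixed in it. Within round 2 the medians were -0.0, 0.03 and -0.01, as given above. Against the 20% O2 library of round 2 alone, both 4% O2 libraries lay lower for 5 of 29, 2 of 30 and 4 of 30 genes (32.1%, 31.3% and 32.6% of all genes). They lay higher for 13, 15 and 13 (31.1%, 31.6% and 33.4%). In these counts the 4% O2 library of round 1 is compared across rounds. Within round 2 alone, 15 of 29, 12 of 30 and 16 of 30 genes were lower at 4% O2. The shares of all genes were 51.0%, 50.1% and 49.5%. Other genes of similarly high level also had round 1 medians below 0. Among genes above the 90th percentile of level, the round 1 median was -0.43 for 15 SR and hnRNP genes and -0.34 for 737 other genes in POLR2, -0.24 and -0.2 in POLR2S5, and -0.31 and -0.29 in POLR2S2. In round 2 the same medians were -0.05 and -0.03, -0.01 and 0.02, and -0.01 and -0.01. The part of island read number in these ratios was not tested.

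**Figure D2:**
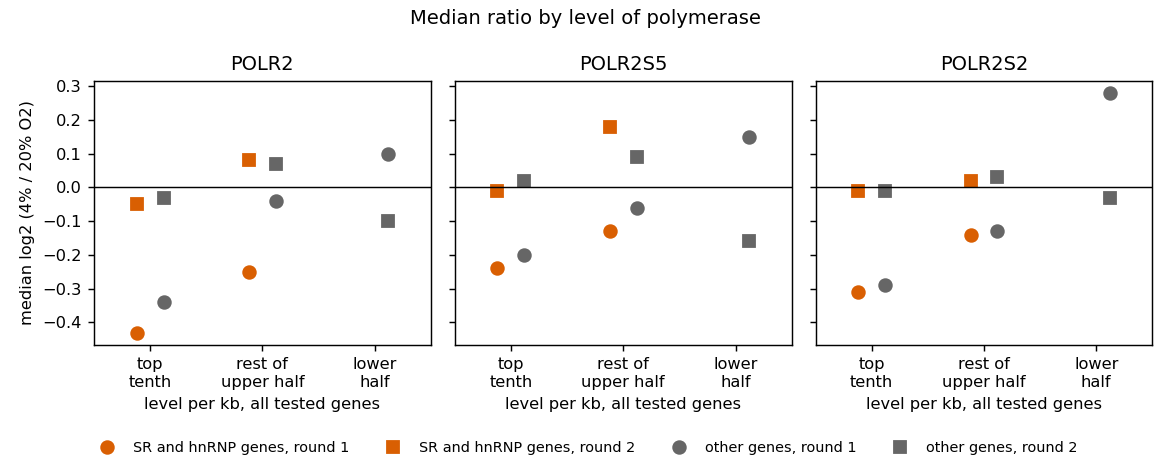
Median log2 ratio of 4% over 20% O2 within round 1 (circles) and round 2 (squares) for the SR and hnRNP genes (orange) and other genes (grey), by percentile of polymerase level per kb: above the 90th, between the 50th and the 90th, and up to the 50th. Groups of fewer than 5 genes are left out, and in the highest class the round 1 medians are below 0 for both sets and all 3 antibodies.

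By family, hnRNP A/B and D genes had the lowest medians, at -0.4 for 6 POLR2 genes, -0.31 for 7 POLR2S5 genes and -0.31 for 7 POLR2S2 genes, and 4, 5 and 4 of them were lower in both rounds. Their round 2 medians were -0.24, -0.23 and -0.07. SR genes had medians of -0.1, 0.0 and -0.08 over 10 genes each, and hnRNP H and F genes -0.33, -0.07 and -0.05 over 4 genes each. The medians were -0.16, 0.05 and -0.15 for 2 hnRNP L genes and 0.11, -0.0 and 0.06 for 3 hnRNP U genes. For the 4 remaining hnRNP genes they were 0.46, 0.03 and -0.02. Hnrnpab, Hnrnpdl and Hnrnpk were lower at 4% O2 in both rounds for all 3 antibodies, and Srsf4 was higher in both rounds for all 3, among 29 genes tested with each, and they were named after their values were seen. Over the 7302 genes tested with all 3 antibodies the shares were 9.34% lower and 11.4% higher. None of these counts rests on a called gene.

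Hnrnpa1, which encodes a prototypic repressor of splicing, had the lowest POLR2S2 ratio. Its POLR2S2 reads were 562 and 736 at 4% O2, against 1090 and 772 at 20% O2, or 64.9 and 55.4 against 251 and 102 after scaling. Both 4% O2 libraries lay below both 20% O2 libraries, as for 17.4% of all genes in that direction. The log2 ratio was -1.42 ± 0.40 (SE, n = 2 per level), with an unadjusted p of 0.0218 and an adjusted p of 0.489 in edgeR's quasi-likelihood test and an adjusted p of 0.0875 with DESeq2. Per kb of island the ratio was also -1.42 and the edgeR adjusted p was 0.00638, the only SR or hnRNP gene past the threshold under that alternative. Counting all reads of islands that reach into the window turned the ratio to 0.32. In POLR2 and POLR2S5 the ratios of Hnrnpa1 were -0.36 ± 0.50 and -0.31 ± 0.48 (SE), with opposite signs in the 2 rounds.

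Hnrnpdl, an hnRNP D paralogue, followed, with scaled POLR2S2 reads of 61.9 and 45.7 at 4% O2 and 143 and 53.2 at 20% O2 and a log2 ratio of -0.71 ± 0.41 (SE). Its POLR2S5 reads were 74.5 and 52.1 against 119 and 67.5, a log2 ratio of -0.53 ± 0.30. The groups of Hnrnpdl overlap in both antibodies. Without the 20% O2 library of round 1, and with no term for the round, the POLR2S2 ratio was 0.02, while within round 2 it was -0.22. Hnrnpl, whose product binds CA-rich RNA, had scaled POLR2S2 reads of 179 and 153 against 279 and 159 and a log2 ratio of -0.34 ± 0.30. For Hnrnpa3 the scaled POLR2S5 reads were 160 and 93.3 against 234 and 123, a log2 ratio of -0.47 ± 0.25. Their adjusted p in edgeR was 0.626 for Hnrnpdl in POLR2S2, 0.711 for Hnrnpl and 0.678 for Hnrnpa3.

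Hnrnph2 and Hnrnph3 encode proteins that bind G-runs in RNA. Hnrnph2, which shares its window with Gla, had 12.5 and 21.8 scaled POLR2S5 reads at 4% O2 and 27.7 and 31.3 at 20% O2, with no overlap between the levels. Its log2 ratio was -0.83 ± 0.37 in POLR2S5 and -0.50 ± 0.36 in POLR2 (edgeR adjusted p 0.672 and 0.79), and 0.11 ± 0.45 in POLR2S2, where it was -0.58 per kb of island. Hnrnph3 had scaled POLR2 reads of 132 and 109 at 4% O2 and 235 and 147 at 20% O2, again without overlap, and a log2 ratio of -0.63 ± 0.37 (edgeR adjusted p 0.769). Counted over whole islands that ratio was 0.37, and in POLR2S5 and POLR2S2 it was -0.04 and -0.02. For Hnrnpa2b1 the scaled POLR2 reads were 227 and 166 against 393 and 177, a log2 ratio of -0.44 ± 0.41 with overlapping levels. Without the 20% O2 library of round 1, and with no term for the round, its ratio was 0.15, while within round 2 it was -0.09.

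Srsf4, an SR gene of 28196 bp, was higher at 4% O2 in both rounds for each polymerase antibody. After scaling, POLR2 gave 116 and 129 at 4% O2 against 57.6 and 48.5, so that both 4% O2 libraries lay above both 20% O2 libraries, as for 16.1% of all genes. The log2 ratio was 1.22 ± 0.35 (SE, n = 2 per level), with an unadjusted p of 0.0125 and an adjusted p of 0.769 in edgeR's test. Islands covered 49.7% and 63.8% of its window at 4% O2 and 17.5% and 11.5% at 20% O2. Per kb of island the ratio was -0.78, where the median of all genes was -0.38. That measure divides by the covered length, so a gain that shows as wider islands is not counted in it. By it the median of the tested HIF targets in POLR2 was also below 0, at -0.35, against 0.38 without it. The POLR2S5 and POLR2S2 ratios of Srsf4 were 0.12 ± 0.28 and 0.45 ± 0.31, and -0.07 and -0.01 per kb of island.

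Hnrnpm and Hnrnpr had high POLR2 ratios that rest on the 20% O2 library of round 1. Hnrnpm had 1342 and 2216 POLR2 reads at 4% O2 and 67 and 1673 at 20% O2, with islands over 7.2% of its window in that library and over the whole window in each of the others. Its log2 ratio was 1.71 ± 0.85, made of 3.35 in round 1 and 0.15 in round 2 (edgeR adjusted p 0.769). Hnrnpr had 1256 and 2200 reads against 229 and 1495 and a log2 ratio of 0.88 ± 0.47. Per kb of island the ratios were -0.13 and -0.66. In POLR2S5 and POLR2S2 both genes had ratios between -0.04 and 0.07. Hnrnpul1 was higher in both rounds for POLR2S2, with scaled reads of 213 and 242 against 199 and 200 and a log2 ratio of 0.19 ± 0.26, which was -0.03 per kb of island.

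**Figure D3:**
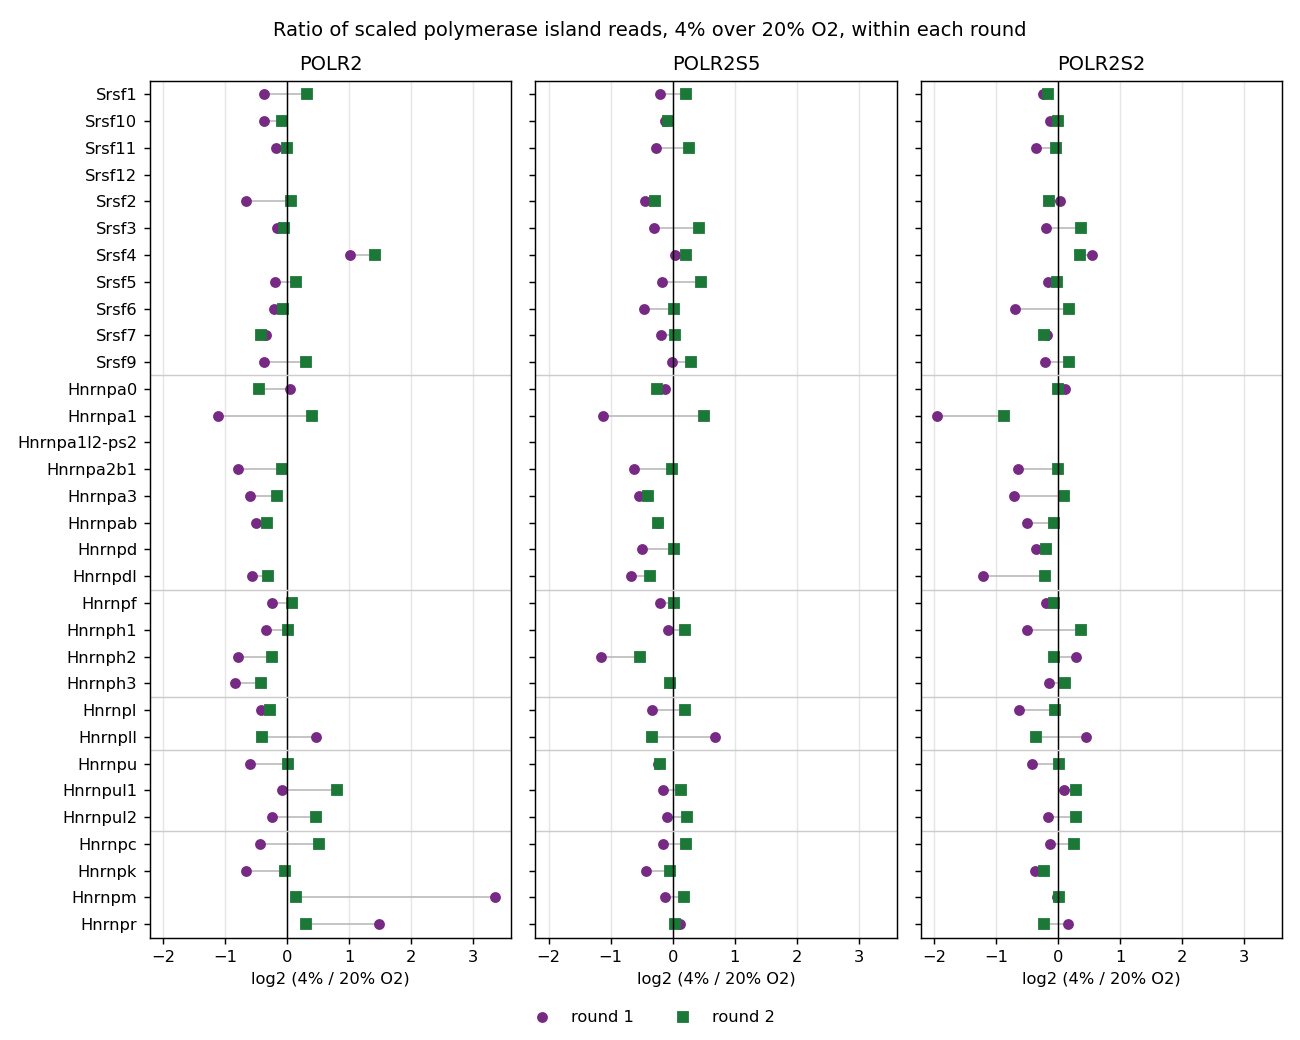
Log2 ratio of scaled reads, 4% over 20% O2, within round 1 (circles) and round 2 (squares) for each SR and hnRNP gene and polymerase antibody, joined by a grey line. Most circles lie left of the squares, Srsf4 lies right of 0 in both rounds for every antibody, and the widest gap is that of Hnrnpm in POLR2, from 3.35 to 0.15.

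Other genes of the splicing pathway, a list of 90, had median log2 ratios of -0.07, -0.05 and -0.07 over 78, 87 and 82 tested genes. None was called by edgeR, and 5, 6 and 4 had an unadjusted p under 0.05. DESeq2 called 1 of them in POLR2S5, Cdc5l, a core component of the Prp19 spliceosome complex, and 1 in POLR2S2, Ptbp3, a paralogue of the polypyrimidine tract binding protein. Cdc5l had scaled POLR2S5 reads of 186 and 150 at 4% O2 and 36.4 and 37.7 at 20% O2, a log2 ratio of 2.17 ± 0.30 (adjusted p 0.000276 with DESeq2 and 0.672 with edgeR). In POLR2 its ratio was 0.39 ± 0.34, and in POLR2S2 it was 1.15 ± 0.62, made of 2.23 in round 1 and 0.1 in round 2. Ptbp3 had scaled POLR2S2 reads of 72.1 and 251 against 6.22 and 146 (log2 ratio 2.07 ± 0.79, adjusted p 0.0282 with DESeq2 and 0.554 with edgeR). Srpk2, a kinase of SR proteins named after its values were seen, had log2 ratios of 0.70 ± 0.39, 1.31 ± 0.37 and 1.04 ± 0.32, with edgeR adjusted p of 0.769, 0.672 and 0.501. Among SR kinases and SR-like regulators as a group the medians were -0.02, 0.06 and 0.02, among core spliceosome genes -0.17, -0.11 and -0.1, and among other regulators -0.05, -0.02 and -0.09.

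H3K9ac peaks were present in all 4 libraries over 31 of the 32 genes, against 58.9% of all protein-coding genes. Hnrnpa1l2-ps2 was the exception, with none in any library. Merged over libraries, these windows held 124 H3K9ac sites, 74 of them called in all 4 libraries, with a median of 2 and at most 6 per gene. Of 29 genes with a known start and such sites, 27 had sites centred on both sides of a start and 15 had a site covering a start. The highest peak score of each gene, which MACS2 gives as -log10 q and which is comparable only as a rank within a library, was turned into a percentile among the 12885 genes with a peak in all 4 libraries. Hnrnpa1 ranked highest, at percentiles 99.7 and 90.8 at 4% O2 and 99.9 and 95.5 at 20% O2, followed by Hnrnpa3 with a mean of 95.1 and Hnrnpa2b1 with 92.7. Srsf12, with a mean of 9.9, Hnrnph2 with 23.8 and Srsf4 with 43.4 ranked lowest. Hnrnph2 and Srsf4 were also among the 3 lowest polymerase levels, and Srsf12 lacked islands in part of the libraries. Over sites, 16 of the 74 ranked higher and 17 lower at 4% O2 in both rounds, against 27.4% and 27.4% of all sites.

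Between oxygen levels, H3K9ac ranks of the SR and hnRNP genes differed by a median of -0.69 percentile points, with 4.47 in round 1 and -3.94 in round 2, beside -0.03 over all genes. Ranks were higher at 4% O2 in both rounds for 8 and lower in both for 6 of 31, against 26.6% and 26.6% of all genes. Hnrnpll, an hnRNP L paralogue known from lymphocytes, had the highest difference, at percentiles 97.2 and 76.0 at 4% O2 against 69.1 and 51.5. Srsf2, whose product is also known as SC35, followed with 82.5 and 98.5 against 49.1 and 88.0, and Srsf11 with 69.2 and 82.7 against 60.9 and 55.3. Each of the 3 was higher at 4% O2 within both rounds, and the oxygen levels did not overlap for Hnrnpll and Srsf11, while those of Srsf2 did. In the other direction stood Hnrnpul1, with 21.8 and 66.1 at 4% O2 against 97.8 and 83.5, Hnrnpa0 with 78.5 and 68.0 against 95.7 and 89.2, and Hnrnpm with 62.9 and 49.5 against 64.8 and 77.3. In each of these, both 4% O2 libraries lay below both 20% O2 libraries. Such an order held for 3 of the 31 genes and the opposite order for 4, against 12.9% and 13.2% of all genes. At Hnrnpul1 the values come from a site at chr7:25751704-25755243 that covers the start, with scores of 15.8 and 62.8 at 4% O2 and 125 and 89.6 at 20% O2. Rank differences of single genes were not tested.

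CTCF peaks lay over fewer of the genes. All 4 libraries had a CTCF peak over 20 of the 32, against 51.6% of all protein-coding genes, 5 genes had one in 2 or 3 libraries and 7 in none. The 7 without were Srsf2, Srsf6, Srsf9, Srsf11, Hnrnpab, Hnrnpd and Hnrnpa1l2-ps2, named after their values were seen. Of 28 CTCF sites called in all 4 libraries, 7 covered a start, those of Srsf5, Srsf12, Hnrnpdl, Hnrnph1, Hnrnpl, Hnrnpm and Hnrnpul1. The ones of Srsf12 and Hnrnpl contain the motifs in capitals above, Srsf12 at chr4:33209068-33209498 with scores of 15.6 and 9.68 at 4% O2 and 15.4 and 22.9 at 20% O2, and Hnrnpl at chr7:28810595-28811032 with 184 and 101 against 117 and 42.5. The highest mean gene ranks were those of Hnrnph1 at 79.8, Hnrnpdl at 73.5 and Hnrnpf at 71.6, and the lowest were Hnrnpk at 3.5, Hnrnpu at 5.4 and Srsf12 at 7.0, so a CTCF peak over a start occurred at both ends of the order.

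CTCF ranks of these genes were more often higher than lower at 4% O2. Among the 20 genes, ranks were higher in both rounds for 11 and lower in both for 1, Srsf12, against 27.6% and 27.6% of all genes, with a median difference of 4.64 percentile points (1.35 in round 1 and 7.39 in round 2). Over sites the counts were 15 higher and 2 lower of 28, against 27.5% and 27.3% of all sites, and the median was 6.55 points. Hnrnpl had CTCF percentiles of 27.3 and 66.7 at 4% O2 against 21.2 and 25.8 at 20% O2, and Hnrnpf of 78.6 and 79.1 against 62.1 and 66.7. Both had their 4% O2 libraries above both 20% O2 libraries, as 7 of the 20 genes had, Srsf3 among them, against 10.9% of all genes. The opposite order was found for 0 of the 20, against 9.67%. At the gene level Srsf3 had the highest difference, 76.5 points, but this came from the edge of its window. Its strong CTCF site at chr17:29044164-29046097, past the end of the gene, reached the window in the 4% O2 libraries alone, although it was called in all 4, with scores of 616 and 185 at 4% O2 and 526 and 166 at 20% O2, and differed in rank by 7.4 points. The CTCF median was above 0 in each alternative run, with values of 0.48 to 10.55.

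RAD21 peaks present in all 4 libraries were few over the SR and hnRNP genes. A peak in all 4 libraries was found over 5 of the 32, Srsf1, Hnrnpf, Hnrnpll, Hnrnpr and Hnrnpul1, against 34.6% of all protein-coding genes. Per library, 12 and 18 genes had a RAD21 peak at 4% O2 and 5 and 18 at 20% O2, where the lists held 39012 and 71225 peaks and 26908 and 73328 peaks, so that the shortest list had the fewest. Without that library, 20% O2 round 1, the count over the other 3 was 11, against 41.4% of all genes. All 7 RAD21 sites of all 4 libraries overlapped a CTCF site of all 4 libraries. Of the 28 such CTCF sites, 25 overlapped a RAD21 site of at least 1 library and 7 overlapped one of all 4 libraries. The same shares over all sites were not computed. None of the 6 RAD21 sites at genes with a known start covered it. In rank, 4 of the 7 RAD21 sites were higher and 1 was lower at 4% O2 in both rounds, against 29.1% and 29.9% of all RAD21 sites.

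RAD21 percentiles were higher at 4% O2 in both rounds at 3 of the 5 genes and lower at 1, against 28.8% and 29.3% of all genes. Srsf1, which encodes the SR protein also called SF2/ASF, stood at 30.5 and 24.4 at 4% O2 against 3.9 and 11.9, Hnrnpf at 31.7 and 40.1 against 5.7 and 25.9, and Hnrnpr at 25.7 and 19.9 against 1.6 and 11.4. Each of these 3 had both 4% O2 libraries above both 20% O2 libraries in rank, against 16.0% of all genes, and their lowest value was in the library with the shortest list. Hnrnpul1 stood at 38.9 and 42.0 against 61.3 and 73.0, the reverse order, which 16.9% of all genes had, and Hnrnpll at 61.2 and 18.7 against 54.3 and 30.3. Past the end of Srsf3, a RAD21 site at chr17:29044355-29046607 overlapped the strong CTCF site, with scores of 180 and 201 at 4% O2 and 63.7 and 76.1 at 20% O2 and rank differences of 14.2 and 43.7 points in rounds 1 and 2. Sites called in both 4% O2 libraries and in neither 20% O2 library numbered 3 of 61, at Srsf1, Hnrnpa3 and Hnrnpu, against 1.08% of all RAD21 sites, and none was called in both 20% O2 libraries alone, against 1.11%. Their scores lay between 3.1 and 10.9. For CTCF neither kind was found among 94 sites, against 1.45% and 0.652% of all sites. For H3K9ac 1 of 124, at Hnrnpd, was called in both 4% O2 libraries alone, against 1.65% of all sites, and 0 in both 20% O2 libraries alone, against 1.03%.

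**Figure D4:**
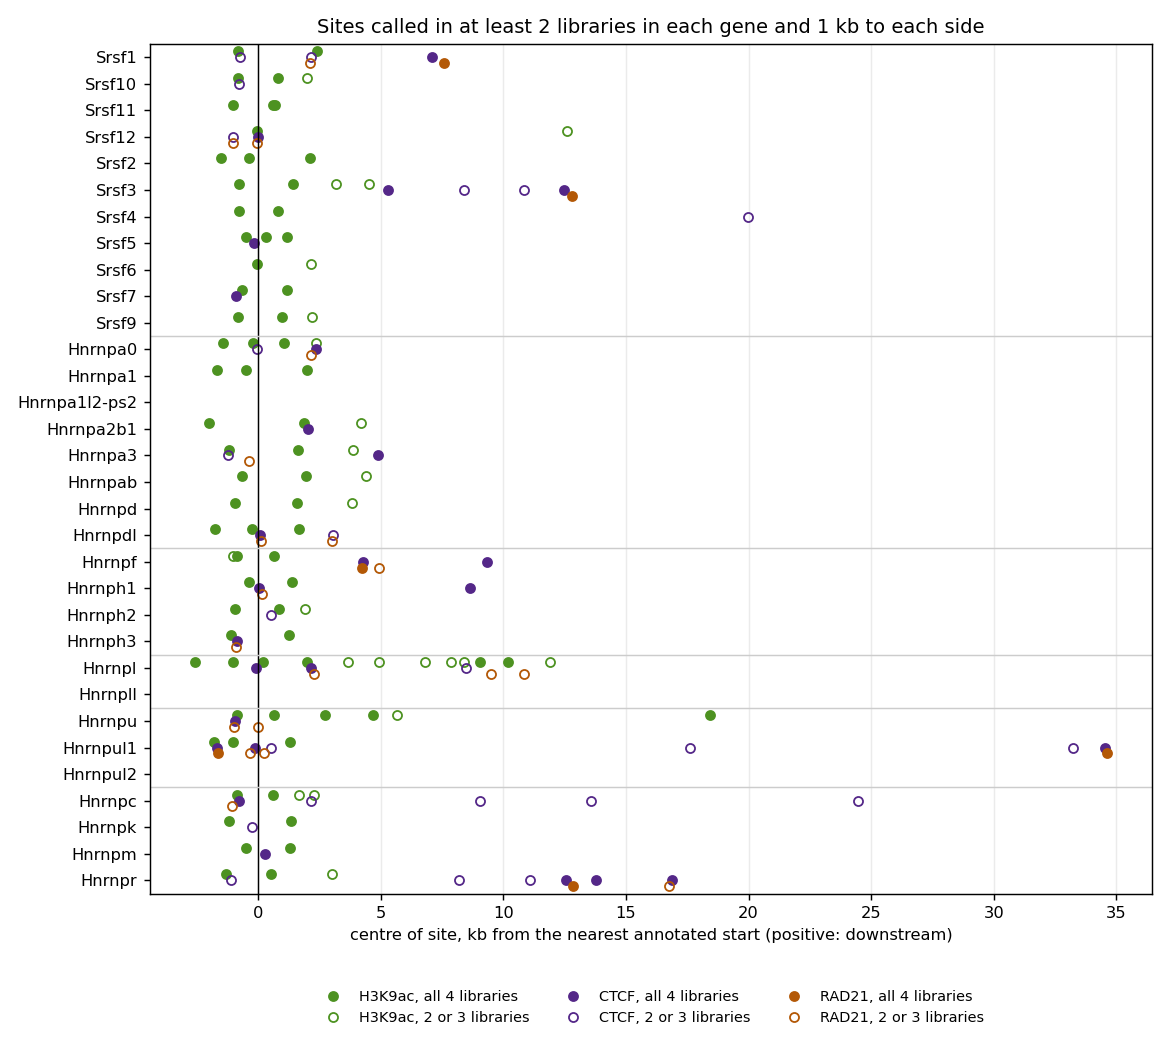
Centre of each site called in at least 2 libraries, in kb from the nearest annotated start, for each SR and hnRNP gene (rows). H3K9ac (green), CTCF (purple) and RAD21 (brown) are filled where all 4 libraries had the site, and Hnrnpll and Hnrnpul2 have no points because no start was available for them. H3K9ac sites pair up around the start line, and filled RAD21 points lie beside filled CTCF points.

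**Figure D5:**
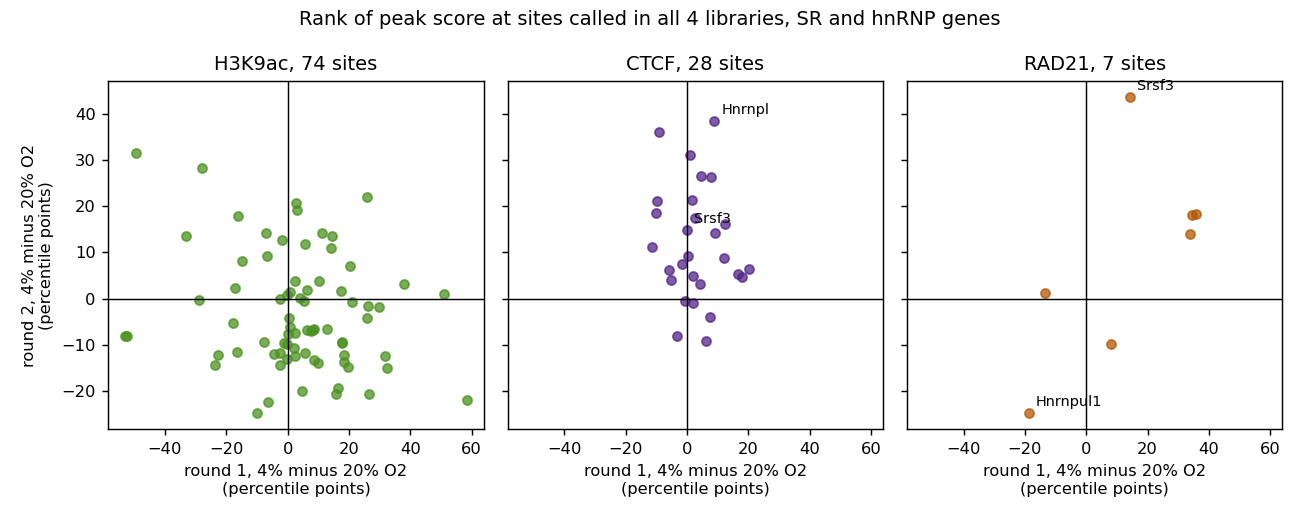
Difference in percentile rank of peak score, 4% minus 20% O2, in round 1 (horizontal) and round 2 (vertical), for the 74 H3K9ac, 28 CTCF and 7 RAD21 sites called in all 4 libraries over SR and hnRNP genes. H3K9ac points spread around 0, 15 of 28 CTCF points are above 0 in both rounds, and the RAD21 site past the end of Srsf3 lies at 14.2 and 43.7.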

How the data were processed

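The series holds 30 samples, of which 24 immunoprecipitated libraries were used and 6 inputs were not used here. The submitters' processing notes name BWA, Picard, SICER, MACS2 and the build mm10, while the sources used here state no versions, settings or order of steps. Lists were called per library by SICER for the polymerase antibodies and by MACS2 for H3K9ac, CTCF and RAD21, per the file headers. In the deposited SICER lists the last column has no name and, from its values, was taken as the count of reads in an island, and in the deposited MACS2 lists as -log10 of a q-value. The lists deposited under replicate 2 repeat a second list deposited with replicate 1, or give its summits, and were counted once, for all 12 pairs. One header, of CTCF 20% O2 replicate 1, carries a code that the labels do not explain, and that library was placed by its label.

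Island reads were split over genes with 1 kb to each side by the share of overlap, rounded, and tested with edgeR 4.0.16 (quasi-likelihood, TMM, round as block, Benjamini-Hochberg over all genes) in R 4.3.3. DESeq2 1.42.0, other scalings, windows and filters, the fit without the round and leaving out each library were alternatives. Peaks counted where they overlapped a window by at least 1 bp, and sites are peaks of the 4 libraries of an antibody merged where they overlapped. The edgeR step was tested on simulated data. Same-numbered libraries of the 2 oxygen levels deviated together from their group means (correlations of 0.29, 0.38 and 0.38 across genes for POLR2, POLR2S5 and POLR2S2), and the replicate number marks the sequencing round per the file headers. Named genes were, per antibody, those past the threshold, the 3 highest and 3 lowest ratios or rank differences of 1 sign in both rounds, the 3 highest and 3 lowest levels, and genes without a peak or island where 5 or fewer. The members and lists were chosen with earlier results of these data known.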

Additional observations from a re-analysis of the deposited data

How the results depend on the processing

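Of the summary values recomputed under alternatives, 143 stayed within the spread between rounds or within 1.5 times a count and 31 did not. DESeq2 in place of edgeR called 11, 91 and 276 genes for POLR2, POLR2S5 and POLR2S2 in place of 0. Reads per kb of island called 1, 4 and 16 genes, with 0 and 1, 0 and 4, and 2 and 14 called higher and lower, among them 1 SR or hnRNP gene in POLR2S2, Hnrnpa1. That alternative moved the median of all genes to -0.38, -0.16 and -0.28, took the count of SR and hnRNP genes higher in both rounds to 0 for each antibody, and gave a POLR2S2 median of -0.21 for them. It also took the medians of the tested HIF targets from 0.38, 1.33 and 1.1 to -0.35, -0.09 and 0.29 for POLR2, POLR2S5 and POLR2S2. Whole islands gave a POLR2S2 median of -0.23 for the SR and hnRNP genes. For POLR2S5, 1 gene was higher in both rounds with RLE scaling, with an island in at least 1 library, and over the gene alone, and for POLR2S2 4 were with at least 100 reads. The edgeR fit with no replicate block called 0 genes for each antibody, as did the fit with it, so no call could be lost. Genes with an unadjusted p under 0.05 numbered 223, 344 and 426 without the block, against 540, 823 and 839 with it.

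Per kb of island, 6 of 29, 3 of 30 and 4 of 30 SR and hnRNP ratios turned sign for POLR2, POLR2S5 and POLR2S2, each from above to below 0. Among the genes named by ratio these were -0.13 for Hnrnpm, -0.78 for Srsf4 and -0.66 for Hnrnpr in POLR2, -0.07 for Srsf4 and -0.15 for Hnrnpr in POLR2S5, and -0.01 for Srsf4 and -0.03 for Hnrnpul1 in POLR2S2. Over whole islands the turned ratios of these genes were 0.37 for Hnrnph3 in POLR2, -0.06 for Srsf4 and -0.1 for Hnrnpr in POLR2S5, and -0.16 for Srsf4, -0.06 for Hnrnpul1, 0.32 for Hnrnpa1 and 0.03 for Hnrnpl in POLR2S2. The cause was not tested.

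Leaving out 1 library at a time, the medians of the SR and hnRNP genes ranged from -0.48 to 0.19 for POLR2, -0.43 to 0.18 for POLR2S5 and -0.41 to 0.19 for POLR2S2, each highest without the 20% O2 library of round 1. The genes called ranged from 0 to 2 for POLR2 (2 without the 4% O2 library of round 1) and 0 to 12 for POLR2S2 (7 and 12 without the 4% O2 library of round 1 or round 2). Rank differences ranged from -6.79 to 4.46 for H3K9ac and 0.48 to 10.55 for CTCF, and genes with a RAD21 peak in every library from 5 to 11. Ratios that changed sign ranged from -1.02 to 0.15 for Hnrnpa2b1 in POLR2, -0.08 to 0.23 for Hnrnpr and -0.97 to 0.04 for Hnrnpa3 in POLR2S5, and -1.41 to 0.02 for Hnrnpdl and -0.74 to 0.07 for Hnrnpl in POLR2S2. Ranking sites in place of windows, and the counts of genes lower in both rounds, were added after the data were seen. Whole islands took the latter to 19 for POLR2S5 and 17 for POLR2S2. With 1 library left at an oxygen level, its spread is assumed to equal that of the other level. Fits and rank differences with a library left out held no term for the round, so they also compare libraries across rounds. Reads outside islands are not in these lists, so a gene near the calling threshold can lose all or part of its reads in a shallow library.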
